A study of Homo sapiens with 8 samples.

Results

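The mRNAs described here encode the mitochondrial ribosomal proteins, taken as every protein-coding gene whose symbol is MRPL or MRPS followed by a number. The rule found 78 genes among the 60666 gene IDs of the deposited count table, 49 with MRPL symbols and 29 with MRPS symbols. All 78 passed the filter on low counts and are described. The samples were bulk RNA libraries of MRC5, a human fibroblast cell line from lung, in 4 groups of 2. The groups were shMTHFD2 cells with TGF-β1, shMock cells with TGF-β1, shMTHFD2 cells without TGF-β1 (shMTHFD2 control) and shMock cells without TGF-β1 (shMock control). shMTHFD2 cells carried a short hairpin RNA against MTHFD2, an enzyme of the mitochondrial folate pathway, and shMock cells carried a control hairpin. All groups therefore share the line and the transduction with a hairpin. TGF-β1, the cytokine that turns fibroblasts into matrix-producing myofibroblasts, was given at 4 ng, with 24 h of incubation, per the labels, which state no volume. Each line rests on 1 hairpin, and no rescue was analysed here, so loss of MTHFD2 and other differences between the lines cannot be told apart.

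The mitochondrial ribosome is built from proteins encoded in the nucleus and ribosomal RNAs encoded in mitochondrial DNA, and it translates only the mRNAs of mitochondrial DNA, which encode core subunits of the respiratory chain and ATP synthase. Its proteins are made in the cytosol, imported, and assembled into a small subunit that decodes the mRNA and a large subunit that forms the peptide bond. Some have bacterial homologs and others are specific to mitochondria. MTHFD2 lies upstream of this machinery in one known way: one-carbon units from mitochondrial folate are used to modify mitochondrial tRNAs.

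Library totals ran from 18162738 to 22221927 counts. The 78 members took 35029 to 49349 counts per library, or 0.188 to 0.244% of the total. A single member had 137 to 1918 counts in a library, well above the 3 counts used as a floor (0.135 to 0.165 CPM of the unscaled library totals). Relative counting error was larger for members at the low end of this range. All levels in CPM that follow use totals scaled with edgeR's TMM factors. MTHFD2 itself had 93.6 and 91.7 CPM in shMTHFD2 with TGF-β1 against 256 and 257 CPM in shMock with TGF-β1, and 14.9 and 18.7 CPM in shMTHFD2 control against 58.7 and 57.0 CPM in shMock control. The libraries follow their hairpin labels in both conditions. Markers of fibroblasts summed to 30852 to 54547 CPM. Markers of epithelium summed to 0 to 0.229 CPM with 4 of 6 at 0 in every library, and those of endothelium to 4.06 to 8.41 CPM with 3 of 5 at 0. Markers of leukocytes summed to 47.1 to 106 CPM with 2 of 6 at 0, and those of smooth muscle and pericytes to 141 to 206 CPM with 1 of 5 at 0. Nearly all of the leukocyte sum was CD68 (46.7 to 105 CPM), while CD14, PTPRC and LYZ had at most 1.03 CPM. Most of the other sum was NOTCH3 (75.3 to 92.0 CPM) and CSPG4 (50.8 to 106 CPM), while MYH11 had at most 0.255 CPM.

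Every member was expressed, and levels differed by over an order of magnitude along the family. Per kilobase of exon, the median member stood at 11.1 CPM per kb, against 5.39 CPM per kb for all 13493 tested genes, and members ran from 1.94 to 45.0 CPM per kb. The highest levels were those of MRPS34, a mitochondria-specific protein of the small subunit (45.0 CPM per kb), MRPL51, a mitochondria-specific protein of the large subunit (37.7 CPM per kb), MRPS21, the counterpart of bacterial S21 (30.7 CPM per kb), MRPL15, the counterpart of bacterial L15 (25.7 CPM per kb), and MRPL41, another mitochondria-specific large-subunit protein (22.5 CPM per kb). The lowest were those of MRPL46 (1.94 CPM per kb), MRPL42 (2.24 CPM per kb), MRPS18C (2.62 CPM per kb), MRPS33 (2.74 CPM per kb) and MRPL48 (2.81 CPM per kb). Exon length was the union over annotated transcripts, so a gene with long, rarely used exons is placed too low on this scale.

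**Figure D1:**
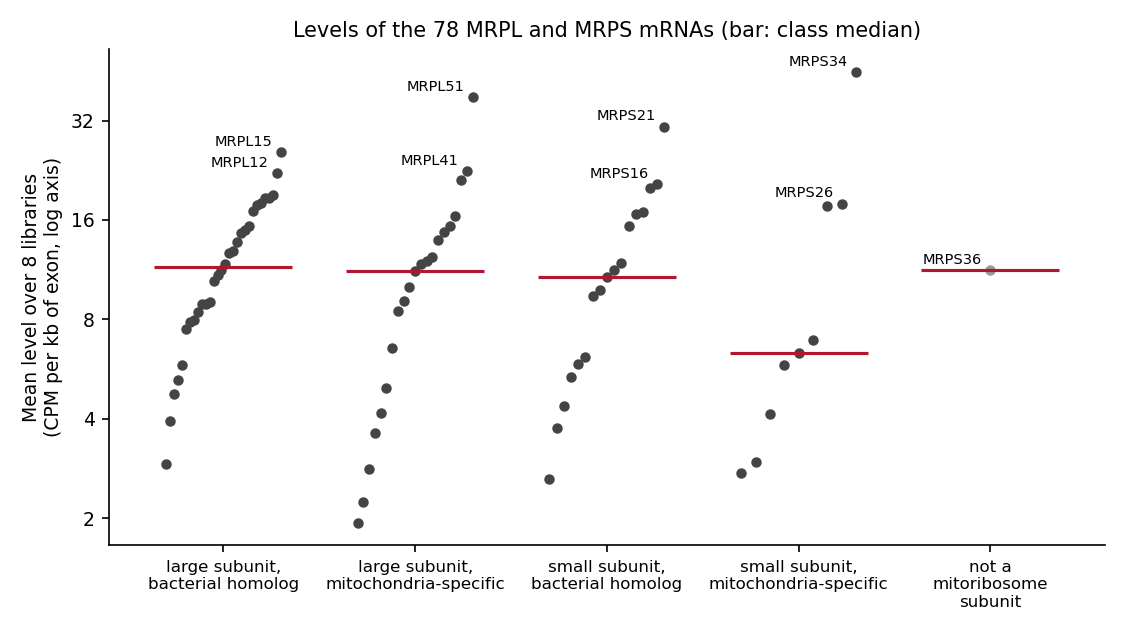
Mean level over the 8 libraries (CPM per kb of exon, log axis) of each of the 78 members (points), ordered within 5 classes, with red bars at the class medians. The class medians lie between 6.31 and 11.6 CPM per kb, while single members run from 1.94 to 45.0 CPM per kb.

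The spread lay within the classes more than between them. The 30 large-subunit proteins with bacterial homologs had a median of 11.6 CPM per kb, the 21 mitochondria-specific large-subunit proteins 11.2 CPM per kb, the 17 small-subunit proteins with bacterial homologs 10.8 CPM per kb and the 9 mitochondria-specific small-subunit proteins 6.31 CPM per kb. Symbols do not always name the subunit. MRPS30 (4.15 CPM per kb) and MRPS18A (16.5 CPM per kb) are now known as proteins of the large subunit, and MRPS36 (11.3 CPM per kb) belongs to the 2-oxoglutarate dehydrogenase complex. The 3 paralogs of bacterial S18 also differed in level per kb, with MRPS18B at 20.02, MRPS18A at 16.5 and MRPS18C at 2.62 CPM per kb. None of these 5 genes passed edgeR's test with TMM scaling and no offsets in any comparison below.

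The start regions of the family shared short sequences that the symbol rule did not use. RefSeq (GRCh38.p14) gave a window from 250 bases before to 50 bases after the start for 69 of the 78 members. The core of ETS-family sites, CCGGAAG on either strand, which the mitochondrial biogenesis factor GABP binds, was present in 29 of 69 member windows (42.0%), against 19.98% of 10300 windows of tested genes and 10.7% of all windows. The core of YY1 sites, AAGATGGC, was present in 20 of 69 (28.99%), against 5.62% of windows of tested genes and 3.03% of all windows. Of its 21 matches in members, 15 lay at or after the start. The NRF1 core GCATGCGC was present in 6 of 69 member windows (8.70%), against 5.74% of windows of tested genes. The E-box CACGTG was present in 8.70%, against 10.2%, and the AP-1 site TGACTCA in 0 of 69, against 3.05%. The ETS or the YY1 core was present in 41 of the 69 windows. These are matches of letters, with no measure of binding.

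The 4 stretches below run from 120 bases before to 30 bases after the RefSeq start. They belong to MRPL3, the member with the highest TGF-β1 response, MRPS34, the member with the lowest TGF-β1 response in shMock, MRPL17, which rose with TGF-β1 in shMTHFD2, and MRPL38, which passed in opposite directions in 2 comparisons that share the shMock TGF-β1 libraries. Capitals mark matches to the ETS core on either strand in MRPL3 (chr3:131502942-131503091, minus strand) and MRPS34 (chr16:1773105-1773254, minus strand), to the NRF1 core in MRPL17 (chr11:6683311-6683460, minus strand) and to the YY1 core in MRPL38 (chr17:75904855-75905004, minus strand).
MRPL3: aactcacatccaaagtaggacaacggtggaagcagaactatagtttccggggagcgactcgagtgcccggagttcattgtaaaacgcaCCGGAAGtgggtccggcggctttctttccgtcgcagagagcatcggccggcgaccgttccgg
MRPS34: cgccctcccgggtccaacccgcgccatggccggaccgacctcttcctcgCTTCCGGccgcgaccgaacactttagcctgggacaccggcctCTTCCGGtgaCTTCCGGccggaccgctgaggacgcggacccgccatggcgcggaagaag
MRPL17: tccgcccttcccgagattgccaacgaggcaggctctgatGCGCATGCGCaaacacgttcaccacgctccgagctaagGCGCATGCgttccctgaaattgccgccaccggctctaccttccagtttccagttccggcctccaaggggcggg
MRPL38: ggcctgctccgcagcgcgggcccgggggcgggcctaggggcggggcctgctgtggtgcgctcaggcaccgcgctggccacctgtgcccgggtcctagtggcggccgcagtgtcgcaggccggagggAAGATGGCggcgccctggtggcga
MRPL3 carried 1 ETS core in this stretch and MRPS34 carried 3, although the mRNAs went opposite ways with TGF-β1 in shMock, as given below.

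Group means of the members were compared across the 4 groups. The ratio of the highest to the lowest group mean had a median of 1.22 over the 78 members, and 4 members exceeded 1.5. Summed over members, the level was 2124 ± 120 CPM in shMTHFD2 with TGF-β1, 2031 ± 35.2 CPM in shMock with TGF-β1, 2181 ± 67.8 CPM in untreated shMTHFD2 cells and 2281 ± 96.0 CPM in untreated shMock cells (SD, n = 2 each). In bulk RNA, fewer cells with an mRNA and less of it per cell cannot be told apart. edgeR's quasi-likelihood test over all 13493 genes, at a Benjamini-Hochberg adjusted p under 0.05, called 28 members in at least 1 comparison and 50 in none. Neither this count nor the ratio above was computed over all tested genes, so neither is read against a background. Shares of all tested genes are given per comparison below. The balance of directions depends on the scaling. Library totals in place of TMM factors gave 5 members higher and 1 lower, against 3 and 2, in shMTHFD2 against shMock with TGF-β1, 1 and 1 against 0 and 3 without it, 2 and 11 against 4 and 6 with TGF-β1 in shMTHFD2, and 1 and 35 against 1 and 17 with TGF-β1 in shMock. Of all tested genes, library totals called 9.92% higher and 5.32% lower in the first comparison, and 5.57% and 5.48% in the second. They called 9.06% higher and 18.2% lower in the third, and 11.6% and 29.1% in the fourth. With this scaling all tested genes had a median response to TGF-β1 of -0.12 on the log2 scale in shMTHFD2 and -0.16 in shMock, and the members one of -0.17 and -0.32.

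**Figure D2:**
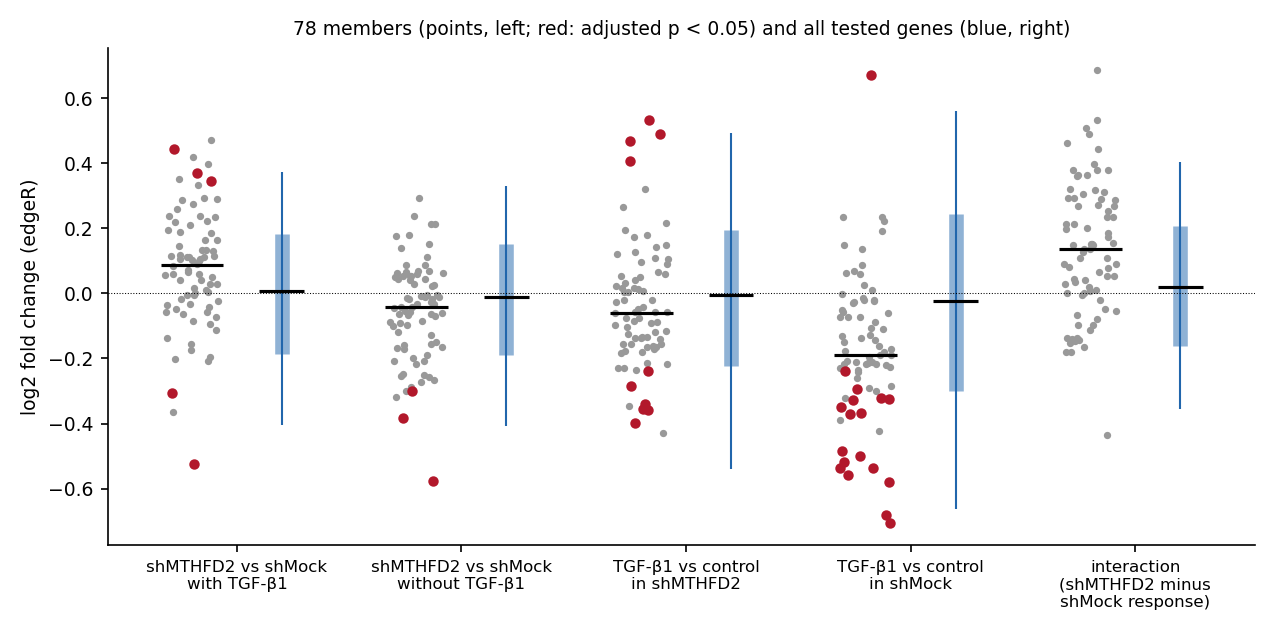
Log2 fold change (edgeR) of the 78 members (points, red where the adjusted p was under 0.05, black bar at the median) beside all 13493 tested genes (blue, 10th to 90th percentile as a line, 25th to 75th as a box, black bar at the median) in 5 comparisons. Member medians are 0.09, -0.04, -0.06, -0.19 and 0.14 from left to right, and the members spread less than the tested genes as a whole.

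The comparison at the centre of the design sets shMTHFD2 against shMock in fibroblasts activated with TGF-β1. Few mRNAs of mitochondrial ribosomal proteins moved in it. Of the 78 members 3 were higher and 2 lower, against 4.83% higher and 8.23% lower among all tested genes, or 3.85% and 2.56% of members. Their median log2 fold change was 0.09, against 0.01 for all tested genes, with 54 of 78 members above 0. The largest passing decrease was that of MRPL49, a mitochondria-specific protein of the large subunit.

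MRPL49 (ENSG00000149792; GRCh38 chromosome 11, 65122183 to 65127371, plus strand) had 36.8 and 33.4 CPM in shMTHFD2 with TGF-β1, against 54.6 and 46.3 CPM in shMock with TGF-β1. Every shMTHFD2 library lay below every shMock library, and its log2 fold change was -0.52 (SE 0.10, edgeR adjusted p = 0.0036). Without TGF-β1 the same mRNA had 33.5 and 35.2 CPM in shMTHFD2, against 50.8 and 51.7 CPM in shMock (-0.58, SE 0.10, edgeR adjusted p = 0.0017), again with no overlap. MRPL49 was the single member lower in both knockdown comparisons, and its level hardly moved with TGF-β1 in either line (log2 fold change 0.03 in shMTHFD2 and -0.02 in shMock). The decrease without TGF-β1 passed in all 8 fits that left out 1 library. The decrease with TGF-β1 passed in 7, and without shMock TGF-β1 replicate 1 its adjusted p was 0.057. Its exons overlap FAU and SYVN1 on the opposite strand, and neither passed in the knockdown comparisons (FAU 0.21 with TGF-β1 and -0.15 without it, SYVN1 0.10 and -0.07).

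MRPL10, which anchors the stalk that recruits translation factors, was the highest of the members that passed with TGF-β1. It had 38.7 and 39.8 CPM in shMTHFD2 with TGF-β1, against 29.2 and 28.5 CPM in shMock with TGF-β1 (0.44 on the log2 scale, SE 0.10, edgeR adjusted p = 0.0069). The groups did not overlap, and the call held in all 8 fits that left out 1 library. Without TGF-β1 MRPL10 had 40.3 and 41.6 CPM in shMTHFD2, against 32.9 and 33.9 CPM in shMock, a log2 difference of 0.29 that did not pass (edgeR adjusted p = 0.056). Its stalk partner MRPL12, also known to bind the mitochondrial RNA polymerase, had 22.5 and 22.8 CPM in shMTHFD2 with TGF-β1, against 22.2 and 21.2 CPM in shMock with TGF-β1, and did not pass.

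The 3 other members that passed in this comparison were less stable. MRPL38, a protein of the central protuberance, averaged 39.7 ± 3.79 CPM in shMTHFD2 with TGF-β1, against 30.7 ± 1.76 CPM in shMock with TGF-β1 (0.37, edgeR adjusted p = 0.038). MRPL30 averaged 34.02 ± 0.176 CPM, against 26.8 ± 1.64 CPM (0.35, edgeR adjusted p = 0.042). MRPL3, a protein near the peptidyl transferase centre, averaged 50.04 ± 2.09 CPM, against 61.9 ± 1.71 CPM (-0.31, edgeR adjusted p = 0.036). None of these groups overlapped. MRPL38 lost the call without shMock control replicate 2, either shMock TGF-β1 library or shMTHFD2 TGF-β1 replicate 1 (adjusted p up to 0.28). MRPL3 lost it without shMock control replicate 1 or any of the 4 TGF-β1 libraries (up to 0.18), and MRPL30 without any of the 8 (up to 0.18). The highest fold change of all was that of MRPS12, the counterpart of the decoding-centre protein S12, with 16.5 and 13.0 CPM in shMTHFD2 with TGF-β1 against 10.6 and 10.7 CPM in shMock with TGF-β1 (0.47, edgeR adjusted p = 0.064), which did not pass.

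**Figure D3:**
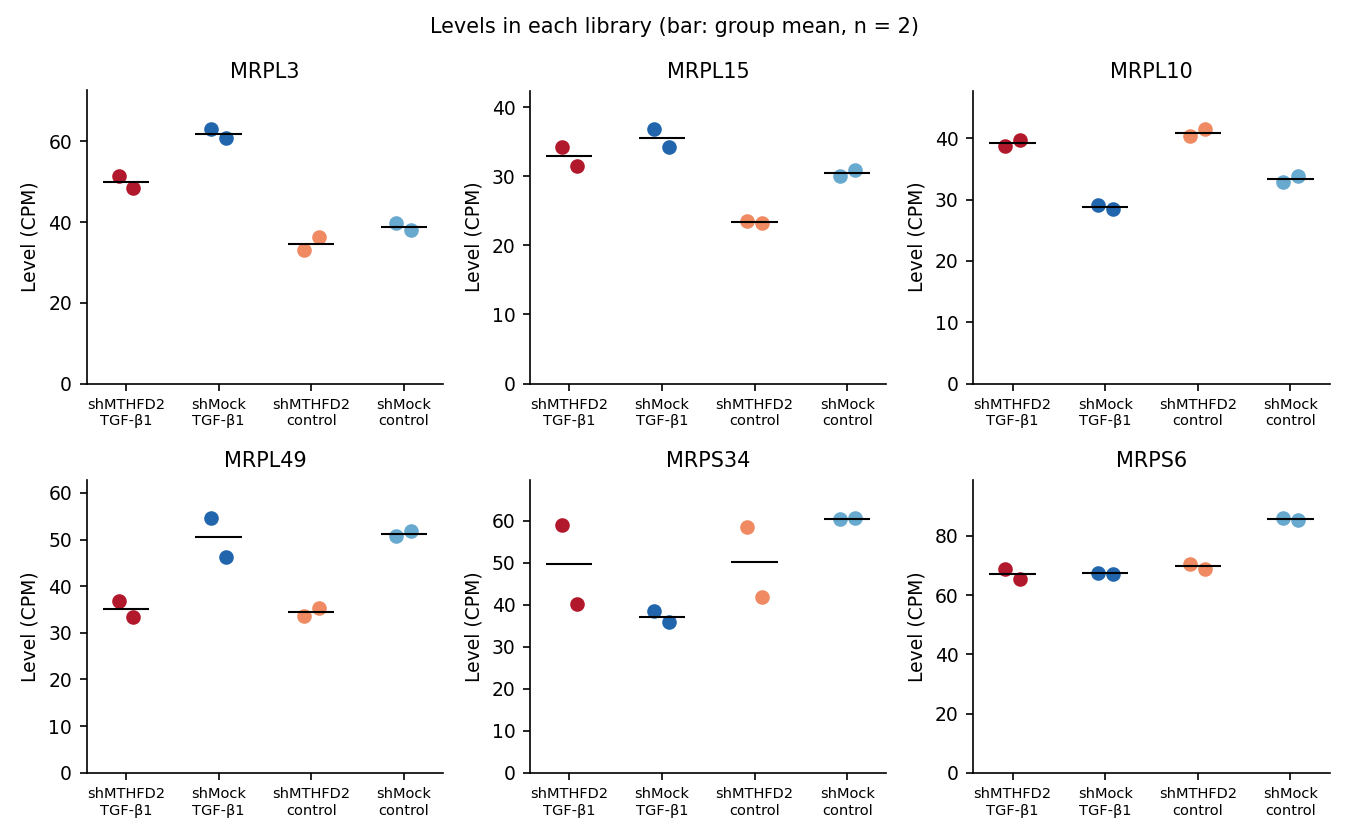
Level (CPM, axis from 0) of MRPL3, MRPL15, MRPL10, MRPL49, MRPS34 and MRPS6 in each of the 8 libraries (points), with bars at the group means (n = 2). MRPL49 lies at 33.4 to 36.8 CPM in the 4 shMTHFD2 libraries and at 46.3 to 54.6 CPM in the 4 shMock libraries, and the shMTHFD2 replicates of MRPS34 lie far apart.

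Without TGF-β1, shMTHFD2 against shMock, 0 members were higher and 3 lower, against 3.25% higher and 8.19% lower among all tested genes. The edgeR test gave 7 members an unadjusted p under 0.05, and DESeq2 called 0 higher and 3 lower. The median log2 fold change was -0.04, against -0.01 for all tested genes. Beside MRPL49, the members that fell were MRPL15 and MRPS6, the counterpart of bacterial S6. MRPL15 had 23.6 and 23.2 CPM in shMTHFD2 control, against 30.1 and 31.0 CPM in shMock control (-0.38, SE 0.10, edgeR adjusted p = 0.028). MRPS6 had 70.5 and 68.9 CPM in shMTHFD2 control, against 86.0 and 85.5 CPM in shMock control (-0.30, SE 0.08, edgeR adjusted p = 0.022). Neither gene's groups overlapped. Both lost the call without either of the shMock control or shMTHFD2 control libraries, with adjusted p up to 0.21 for MRPL15 and 0.16 for MRPS6. MRPS6 shares exons with SLC5A3, a transporter gene on the same strand that did not pass (0.16, edgeR adjusted p = 0.32).

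TGF-β1 against control in shMock moved the most members. Of the 78, 1 was higher and 17 were lower, against 17.3% higher and 18.1% lower among all tested genes, or 1.28% and 21.8% of members. The share of lower members was thus near the background, while few members rose. The median log2 fold change was -0.19, against -0.02 for all tested genes, and 65 of 78 members were below 0. The decreases fell on all 4 classes: 6 of 30 large-subunit proteins with bacterial homologs, 6 of 21 mitochondria-specific large-subunit proteins, 2 of 17 small-subunit proteins with bacterial homologs and 3 of 9 mitochondria-specific small-subunit proteins.

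MRPS34 had the lowest fold change. It had 38.4 and 35.8 CPM in shMock with TGF-β1, against 60.3 and 60.6 CPM in shMock control (-0.70, SE 0.16, edgeR adjusted p = 0.0031). MRPL34, the counterpart of bacterial L34, had 18.6 and 16.5 CPM in shMock with TGF-β1, against 26.8 and 29.6 CPM in shMock control (-0.68, SE 0.16, edgeR adjusted p = 0.0032). MRPL41 had 21.5 and 23.5 CPM in shMock with TGF-β1, against 32.8 and 34.5 CPM in shMock control (-0.58, SE 0.14, edgeR adjusted p = 0.0045). In none of the 3 did the groups overlap. MRPS25, a mitochondria-specific small-subunit protein, had 23.1 and 30.6 CPM in shMock with TGF-β1, against 39.3 and 39.6 CPM in shMock control (-0.56, edgeR adjusted p = 0.0028). MRPS6 had 67.6 and 67.1 CPM in shMock with TGF-β1, against 86.0 and 85.5 CPM in shMock control (-0.35, edgeR adjusted p = 0.0027). These 5 decreases passed in all 8 fits that left out 1 library.

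The next lowest members in shMock were MRPL33 (-0.54), MRPL23 at the exit of the peptide tunnel (-0.54), MRPS26 (-0.52), MRPS24 (-0.50), the rescue factor MRPL58, which releases peptides from stalled ribosomes (-0.48), and MRPL44 (-0.37), all with an edgeR adjusted p under 0.05. Another 6 passed with log2 fold changes between -0.37 and -0.24. These 12 did not keep the call in every fit that left out 1 library. All tested genes also gave fewer lower calls without any 1 of the shMock libraries, so these losses are not particular to the members. The members' median was -0.26 without shMock control replicate 1 and -0.09 without shMock control replicate 2. It was -0.19 without shMock TGF-β1 replicate 1 and -0.18 without shMock TGF-β1 replicate 2. MRPL33 overlaps BABAM2 on the same strand, which fell too (-0.43, edgeR adjusted p = 0.013), so reads of the pair may have been shared.

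MRPL3 was the exception in shMock. It had 63.1 and 60.7 CPM in shMock with TGF-β1, against 39.8 and 38.0 CPM in shMock control (0.67, SE 0.09, edgeR adjusted p = 3.4e-05). In shMTHFD2 it had 51.5 and 48.6 CPM with TGF-β1, against 33.0 and 36.2 CPM in control (0.53, SE 0.09, edgeR adjusted p = 0.00043). No libraries overlapped in either line, and both calls held in all 8 fits that left out 1 library. With TMM scaling and no offsets, MRPL3 was the single member to rise with TGF-β1 in both lines. Its level with TGF-β1 was the lower one in shMTHFD2, as given above, while the interaction test did not call the responses different (-0.14, edgeR adjusted p = 0.68).

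In shMTHFD2, TGF-β1 against control gave 4 members higher and 6 lower, against 12.8% higher and 11.0% lower among all tested genes. The median was -0.06, against -0.01 for all tested genes. The members that rose were all large-subunit proteins with bacterial homologs: MRPL3, MRPL15, MRPL2, which lies at the peptidyl transferase centre, and MRPL17, near the tunnel exit. MRPL15 had 34.2 and 31.5 CPM in shMTHFD2 with TGF-β1, against 23.6 and 23.2 CPM in shMTHFD2 control (0.49, SE 0.10, edgeR adjusted p = 0.0025), and passed in all 8 fits. MRPL2 averaged 24.5 ± 1.004 CPM, against 17.7 ± 1.56 CPM (0.47, edgeR adjusted p = 0.020), and MRPL17 37.4 ± 2.81 CPM, against 28.2 ± 0.989 CPM (0.41, edgeR adjusted p = 0.011). MRPL2 did not pass without shMTHFD2 control replicate 2 or shMTHFD2 TGF-β1 replicate 2 (adjusted p up to 0.16), nor MRPL17 without shMTHFD2 control replicate 2 or shMTHFD2 TGF-β1 replicate 1 (up to 0.11). KLC4, which overlaps MRPL2 on the opposite strand, also rose (0.65, edgeR adjusted p = 2.0e-04).

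The 6 members that fell in shMTHFD2 were MRPL40 (-0.40), MRPL16 (-0.36), MRPS25 (-0.35), MRPS14 (-0.34), MRPL9 (-0.29) and MRPL37 (-0.24), with edgeR adjusted p between 0.032 and 0.0499. DESeq2 called 1 lower member, and without shMTHFD2 control replicate 1 or shMTHFD2 TGF-β1 replicate 2 the edgeR test called 0. Without shMTHFD2 control replicate 2, 0 of these 6 passed, and the 1 lower member called was MRPL34, which had not passed with all libraries (-0.43, edgeR adjusted p = 0.058). Without shMTHFD2 TGF-β1 replicate 1, 2 lower members were called, of which 1 was among the 6 and the other was MRPL34. Without shMock control replicate 1, 2 of the 6 passed and no other member was called lower. MRPS25 and MRPL37 were lower with TGF-β1 in both lines. The call for MRPL37 was lost in most fits that left out 1 library, in each line. That for MRPS25 held in all of them in shMock but not in shMTHFD2. MRPS25 had 31.7 and 29.3 CPM in shMTHFD2 with TGF-β1, against 41.0 and 36.9 CPM in shMTHFD2 control. MRPL37 averaged 49.9 ± 0.602 CPM in shMTHFD2 with TGF-β1, against 58.9 ± 1.28 CPM in shMTHFD2 control. In shMock it averaged 49.0 ± 0.183 CPM with TGF-β1, against 57.8 ± 1.27 CPM in control. On the opposite strand MRPL37 overlaps SSBP3 and CYB5RL, which fell in shMock (-0.66 and -0.53) and did not pass in shMTHFD2 (-0.21 and -0.40). MRPS14 overlaps CACYBP, which fell in shMTHFD2 too (-0.50, edgeR adjusted p = 0.0049). NR2C2, which overlaps MRPS25, went the other way (0.24 in shMTHFD2, not passing, and 0.38 in shMock). Whether reads were shared was not tested.

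**Figure D4:**
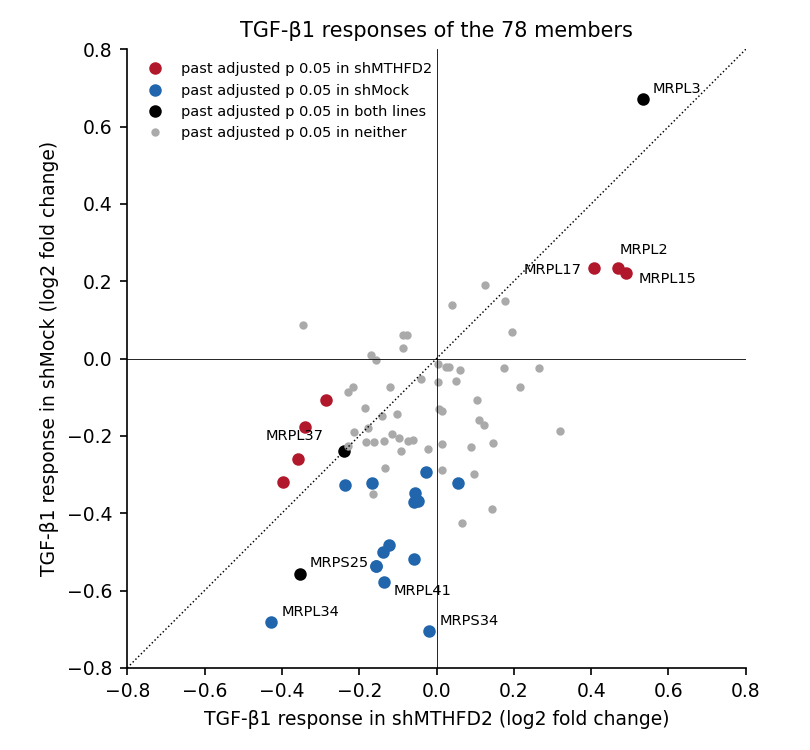
Log2 fold change (edgeR) with TGF-β1 in shMTHFD2 (x axis) and in shMock (y axis) of the 78 members (points, coloured by the line in which the adjusted p was under 0.05), with the line of equal response dotted. MRPL3 lies high on both axes (0.53 and 0.67), while MRPS34 lies at -0.02 in shMTHFD2 and -0.70 in shMock.

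The responses of the lines share no library, and 42 of 78 members were below 0 in both and 8 above 0 in both. The interaction, the response in shMTHFD2 minus that in shMock, called 0 members higher and 0 lower, against 0.0371% and 0.0519% of all tested genes. The edgeR test gave 6 members an unadjusted p under 0.05, and DESeq2 called 0. The median interaction was 0.14, against 0.02 for all tested genes, with 59 of 78 members above 0. MRPS34 had the highest (0.68, SE 0.23, edgeR adjusted p = 0.25), and its replicates disagreed in shMTHFD2, with 59.0 and 40.2 CPM with TGF-β1 against 58.6 and 41.8 CPM in control. Leaving out shMTHFD2 control replicate 1 brought MRPS34 itself past the threshold, in a fit that also called more of all tested genes than the fit with all libraries. Members that passed in shMock and not in shMTHFD2 are therefore not shown to respond differently in the 2 lines.

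Members that fell with TGF-β1 in shMock were rich in G and C. Their exons had a median GC content of 58.7%, against 49.2% for all members. Across members, the shMock response ran against GC (Spearman -0.57, n = 78), as it did across all tested genes (-0.29, n = 13416). In shMTHFD2 the same values were -0.06 and 0.03. For the interaction they were 0.48 and 0.48, and for shMTHFD2 against shMock with TGF-β1 0.48 and 0.34. Points share libraries, and genes are not independent replicates. In the 25 members above 53.8% GC the median shMock response was -0.32, against -0.18 for all tested genes above it, and in the 26 members below 44.7% GC it was -0.04, against 0.11. The part of GC in the responses was not tested. With offsets that take off the trends with GC and length, 5 members were higher and 8 lower with TGF-β1 in shMock, and MRPS34 (adjusted p = 0.032), MRPL34, MRPS25 and MRPS6 still passed while MRPL41 (adjusted p = 0.14) did not. The 5 higher members were MRPL3, MRPL15, MRPL17, MRPL2 and MRPL51. The first 4 of them were also higher with TGF-β1 in shMTHFD2 under the offsets. With these offsets 17.4% of all tested genes were higher and 16.7% lower with TGF-β1 in shMock.

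**Figure D5:**
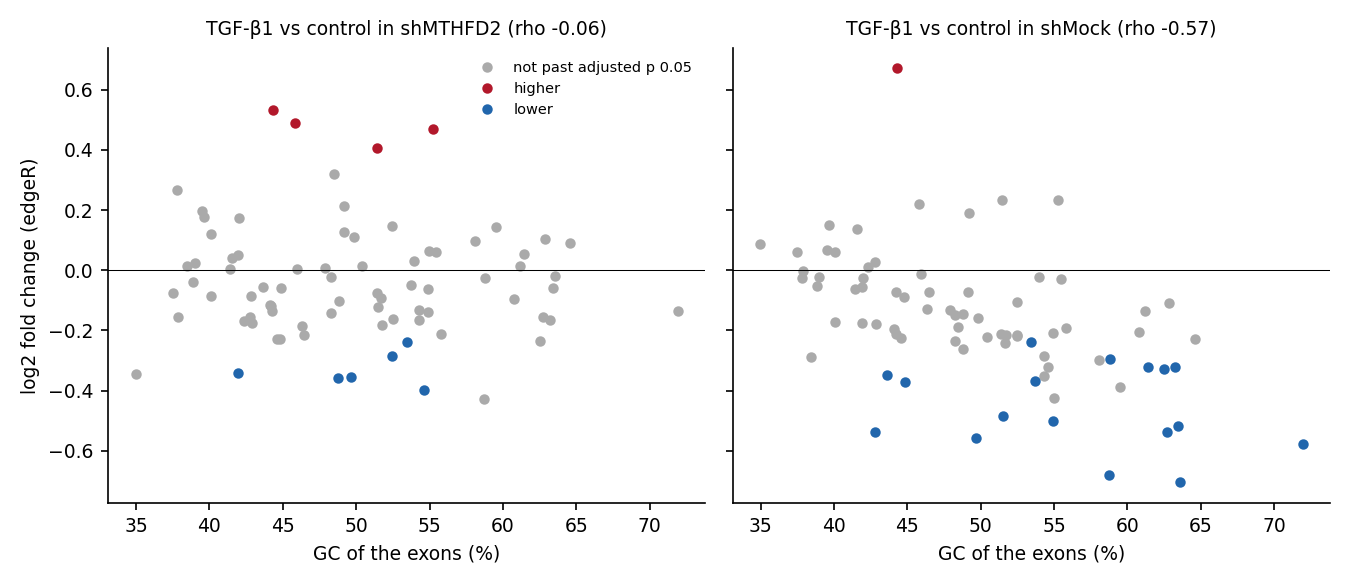
Log2 fold change (edgeR) with TGF-β1 of the 78 members against the GC content of their exons (%), in shMTHFD2 (left) and in shMock (right), with members past an adjusted p of 0.05 in red where higher and blue where lower. The points slope down in shMock (Spearman -0.57) and lie flat in shMTHFD2 (-0.06).

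Motif matches were present on both sides of these calls. Of the 16 members lower with TGF-β1 in shMock that had a RefSeq window, 8 held the ETS core and 3 the YY1 core, and the single higher member, MRPL3, held the ETS core too.

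Other parts of the same machinery moved as follows. For the counts in this and the following lists, TGF-β1 raised 17.3% and lowered 18.1% of all tested genes in shMock. In shMTHFD2 these shares were 12.8% and 11.0%. In shMTHFD2 against shMock they were 4.83% and 8.23% with TGF-β1, and 3.25% and 8.19% without it. The mitoribosome has 5 further tested proteins under other symbols, of which 0 rose and 2 fell with TGF-β1 in shMock: GADD45GIP1, with 24.6 CPM against 39.4 CPM (-0.68, edgeR adjusted p = 0.0047), and AURKAIP1 (-0.44, edgeR adjusted p = 0.023). GADD45GIP1 passed in all 8 fits that left out 1 library, and its log2 fold change was -0.40 with GC and length offsets (adjusted p = 0.030). AURKAIP1 lost the call without either shMock control library or shMock TGF-β1 replicate 2 (adjusted p up to 0.13), and with the offsets it stood at -0.07 (adjusted p = 0.66). None of the 5 passed in the other comparisons. Of 23 assembly factors, TGF-β1 raised 2 and lowered 1 in shMTHFD2 (8.70% and 4.35%), and raised 1 and lowered 3 in shMock (4.35% and 13.0%). All of these shares lay under those of all tested genes. TFB1M, which methylates the rRNA of the small subunit, rose in both (0.81 in shMTHFD2 and 0.70 in shMock), and METTL15, an enzyme acting on the same rRNA, fell in both (-0.79 and -0.53), although in shMock it did not pass without shMock control replicate 2 (adjusted p = 0.075). RBFA, a maturation factor of the small subunit, fell in shMock (-0.70). No assembly factor passed in either knockdown comparison.

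Of 15 mitochondrial translation factors, OXA1L, the insertase at the inner membrane, was higher in shMTHFD2 with TGF-β1 (121 CPM against 98 CPM in shMock, 0.31, edgeR adjusted p = 0.015), and LRPPRC, which stabilises mitochondrial mRNAs, was higher in shMTHFD2 without it (0.27, edgeR adjusted p = 0.045). OXA1L lost this call without shMock TGF-β1 replicate 1 or either shMTHFD2 TGF-β1 library (adjusted p up to 0.088). LRPPRC lost its call without any 1 of the 4 control libraries (adjusted p up to 0.19), with the replicate block (adjusted p = 0.054) and with GC and length offsets (adjusted p = 0.12). TGF-β1 lowered OXA1L in shMock (-0.28), a call lost without shMock control replicate 1 or shMock TGF-β1 replicate 1 (adjusted p up to 0.099), and no translation factor passed with TGF-β1 in shMTHFD2. Of the 5 genes of tRNA modification that use folate units or act beside them, 0 passed in any comparison. Of 14 regulators of mitochondrial biogenesis, 2 were higher and 1 lower in shMTHFD2 against shMock with TGF-β1, 0 and 2 without it, 2 and 0 with TGF-β1 in shMTHFD2, and 1 and 2 with TGF-β1 in shMock. The PGC-1-related coactivator PPRC1 rose with TGF-β1 in both lines (0.51 in shMTHFD2 and 0.55 in shMock). PPARGC1A and PPARGC1B, also on this list, went the other way at low levels. In shMock with TGF-β1 PPARGC1A had 1.06 and 0.286 CPM, against 1.84 and 1.58 CPM in shMock control. PPARGC1B had 1.86 and 1.09 CPM, against 3.50 and 3.40 CPM. In shMTHFD2 PPARGC1A had 2.04 and 2.99 CPM with TGF-β1, against 4.39 and 3.71 CPM in control. MYC was lower in shMTHFD2 both with TGF-β1 (-0.79) and without it (-0.88).

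The RNAs that the mitoribosome contains and reads gave other calls than the mRNAs of its proteins, though some of these calls were unstable. Without TGF-β1, 10 of 13 mRNAs of mitochondrial DNA were higher in shMTHFD2 than in shMock (median 0.54). In the same comparison 0 of 78 members and 3.25% of all tested genes were higher. None of these calls held without shMTHFD2 control replicate 2, nor without shMock control replicate 2. In both fits far fewer of all tested genes were called higher too. DESeq2 called 0 of the 13 (median 0.55). Mitochondrial DNA took 6.24 and 7.74% of the counts in shMTHFD2 control, against 5.51 and 3.89% in shMock control, so these replicates lay farthest apart. With TGF-β1 in shMTHFD2 all 13 fell (median -0.72), as did both rRNAs, MT-RNR2 (-0.82) and MT-RNR1 (-0.78), against 11.0% of all tested genes. Leaving out any 1 library kept at least 10 of the 13 past the threshold. In shMock 0 of 13 passed (median 0.15, with 0 at an unadjusted p under 0.05 and 0 by DESeq2), and without shMock control replicate 1 10 were higher. The interaction called 0 of the 13 (median -0.86), with 13 at an unadjusted p under 0.05 and 0 by DESeq2. It called 11 lower without shMTHFD2 control replicate 1, 12 without shMock control replicate 1 and 0 in the 6 other fits that left out a library, so with all libraries the 2 lines are not shown to differ in this response. Among 83 tested cytosolic ribosomal proteins, 4 were higher and 14 lower with TGF-β1 in shMock (4.82% and 16.9%, median -0.11). Of the 78 mitochondrial ones 1 was higher and 17 were lower, and of all tested genes 17.3% and 18.1%.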

How the data were processed

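MRC5 libraries were made with an mRNA kit and sequenced on an Illumina instrument, per the labels' protocols. The authors deposited 1 table of whole-number counts per Ensembl gene ID, with 1 column per library. STAR 2.7.1a, DESeq2 1.32.0 and GRCh38 are named in the submitters' processing notes. The counter, annotation and use of strand are not given in the sources used, so genes whose exons overlap others (41 of 78 members, 18 of the 28 called) are uncertain. Positions, exon lengths and overlaps came from GENCODE release 29, and symbols from the supplied name table (60437 IDs). Of 79 pseudogene IDs of the family, 73 had 0 counts, and all together held 0.468% as many counts as the members.

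Groups came from sample titles and the treatment field. In 3 shMTHFD2 samples the genotype field names another gene, and the extraction text mentions another line and hairpin. Nothing says that replicates were separate cultures, so a p-value reflects only how far these libraries differed, perhaps for technical reasons. The filter kept 13493 genes averaging 1 CPM or more. edgeR 4.0.16 in R 4.3.3 fitted a mean per group to all 8 libraries (TMM scaling, 4 residual degrees of freedom, common biological coefficient of variation 8.79%) and its quasi-likelihood F test was adjusted by Benjamini-Hochberg over all tested genes, called under 0.05. It was tested on simulated data. Approximate standard errors follow from the F statistic. Levels in CPM use TMM-scaled totals, with SD over 2 libraries. Floors cover counting error only. Alternatives were DESeq2 1.42.0, other scalings and filters, offsets for GC and length, a replicate block, the 4 libraries of a comparison alone and leaving out each library. Named genes are up to 10 highest and 10 lowest called members per comparison, the 5 highest and 5 lowest levels per kb, MRPS18 paralogs, MRPS30, MRPS36, MRPL58, MRPL12 and MRPS12, and up to 2 per direction of each other list. Motifs were searched on both strands of the first window listed per gene. The members, lists and tests were chosen with earlier results of these data known.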

Additional observations from a re-analysis of the deposited data

How the results depend on the processing

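Scaling on library totals gave, with TGF-β1, 5 members higher and 1 lower in shMTHFD2 (median 0.18), and without it 1 and 1 (median 0.024). It gave 2 higher and 11 lower with TGF-β1 in shMTHFD2 (median -0.17) and 35 lower in shMock (median -0.32). The shares of all tested genes were 9.06% higher and 18.2% lower in shMTHFD2, and 11.6% and 29.1% in shMock. Offsets for GC and length left 1 lower member in shMTHFD2 against shMock with TGF-β1, brought 1 higher without it, and gave 5 higher and 8 lower with TGF-β1 in shMock (median -0.12). Of all tested genes 17.4% were higher and 16.7% lower in shMock with these offsets. Scaling without mitochondrial DNA genes brought 1 higher member in shMTHFD2 against shMock without TGF-β1. The 4 libraries alone gave 1 lower member in shMTHFD2 with TGF-β1 and 1 higher without it, and 3 lower with TGF-β1 in shMTHFD2. DESeq2 gave 1 lower there, and both no filter and edgeR's own filter gave 3. With no filter the interaction called 1 member higher (MRPS34), and 0.689% of all genes in that fit. The cause was not tested.

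Leaving out 1 library gave 1 to 4 members higher and 0 to 2 lower in shMTHFD2 against shMock with TGF-β1 (median 0.0195 to 0.15), and 0 to 1 and 1 to 3 without it (median -0.089 to 0.0303). It gave 2 to 4 higher and 0 to 6 lower with TGF-β1 in shMTHFD2 (median -0.12 to 0.016), and 1 higher and 7 to 17 lower in shMock (median -0.26 to -0.0902). The interaction gave 0 to 1 higher (median 0.032 to 0.17). The calls over all tested genes changed from fit to fit as well, so these ranges do not describe the members alone. No named member reversed a passing direction under any alternative run.

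Differences between replicates correlated little from group to group (-0.03 to 0.10, highest between the 2 shMTHFD2 groups). This does not exclude pairing among the members. In members above 53.8% GC, the median log2 deviation from each member's mean was 0.15 and -0.03 in shMTHFD2 control replicates 1 and 2. It was 0.08 and -0.07 in shMTHFD2 with TGF-β1, 0.04 and 0.21 in shMock control, and -0.18 and -0.20 in shMock with TGF-β1. With the replicate block, 3 members were called higher and 2 lower, 0 and 3, 4 and 4, and 1 and 17 in the 4 comparisons in the order of the report's plot of fold changes. Of these, 1 higher call in the first (MRPS34) and 1 lower call in the third (MRPL34) were new. With GC and length offsets added to the block, the first had 4 higher, of which 2 were new (MRPS30 and MRPS7), and 1 lower. The second had 1 higher, which was new (MRPL10). The fourth had 5 higher, of which 1 had been called before, and 9 lower, of which 8 had been (median -0.11). In it 17.3% of all tested genes were higher and 16.8% lower.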
